A study of Homo sapiens with 4 samples.

Results

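Transcripts annotated as substrates of nonsense-mediated decay (NMD) were compared with coding transcripts of the same genes in a YTHDC1 RIP-seq experiment. Members were selected on the mean normalized count over all libraries, which had to be at least 100 both for the NMD transcript and for a protein-coding transcript of the same gene. Each NMD transcript was paired with the protein-coding transcript of its gene that had the highest mean normalized count, called its coding partner here. Of 75165 transcripts of 20298 genes in the authors' deposited table, 6499 were NMD transcripts, and 1774 of these, in 1453 genes, were members. Of the remaining NMD transcripts, 4472 had a mean normalized count below 100, 179 lay in genes whose coding transcripts were all below 100, and 74 lay in genes with no listed coding transcript. The members nearest the minimum were RHBDD3-203, with a mean normalized count of 100.014 and a log2 fold change of −1.03, and RC3H2-210, with 100.016 and 10.19. Just below it was an NMD transcript of ADAM15, with 99.64 and −5.57.

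NMD is a cytoplasmic quality control pathway that degrades RNAs in which translation stops too early, typically upstream of an exon junction complex left behind by splicing. Many genes of splicing regulators use it to limit their own output, by including a poison exon or skipping a coding exon and so making an RNA that is destroyed instead of translated. YTHDC1 is the nuclear reader of N6-methyladenosine (m6A), a methyl mark on adenosines of RNA, and acts in the nucleus on the processing and fate of the RNAs it binds.

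MDA-MB-231, a mesenchymal triple negative breast cancer line, was the source of all libraries. The 2 libraries of the Flag-YTHDC1 IP and the 2 of the input shared the same treatment: lentiviral transduction with 3x flag-YTHDC1 at a multiplicity of infection of 4, puromycin at 2 µg/ml for 4 days, and UV crosslinking with 3 exposures of 120000 µJ/cm2. Nuclear lysate with 500 µg of protein was incubated with 5 µg of anti-flag antibody, and lysate with 50 µg of protein was kept as input, which the labels name total RNA. The bait was thus overexpressed from a vector, and a control IP was not analysed here. The study describes its replicates as biological, while the labels do not name separate cultures. The mesenchymal markers VIM, CD44, FN1 and AXL had summed mean normalized counts of 80785, 14306, 16414 and 63189. ESR1 and PGR were not listed, CDH1 reached 10.0 and EPCAM 78.3, while GATA3 stood at 584.

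All fold changes, standard errors (SE) and adjusted p-values below are those of the authors' deposited DESeq2 comparison over transcripts, read as IP over input. The comparison asked which nuclear RNAs were recovered with YTHDC1 beyond their share of the lysate. No value for a single library was given. Library depth is therefore unknown, and the spread between the 2 libraries of a group enters only through the SE. A transcript was called higher in the IP when its adjusted p was 0.1 or less and its fold change 2 or more, and higher in the input when the fold change was 0.5 or less. Levels given for each group are normalized counts estimated here from the mean normalized count and the fold change. The authors' estimates divided reads among overlapping transcripts, and an NMD transcript shares most of its exons with coding transcripts of its gene, so the values of a pair are not independent. Members were not replicates, and none of the shares below was tested.

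The NMD transcripts were found on either side of the comparison, with more calls in the input than in the IP. Of the 1774 NMD transcripts, 249 (14.0%) were called higher in the IP and 357 (20.1%) higher in the input. Over all 75165 transcripts, 9.22% were called higher in the IP and 10.0% higher in the input, and over the 26017 transcripts that reached the minimum of 100, the shares were 16.8% and 17.7%. The median log2 fold change of the NMD transcripts was −0.12, with quartiles of −0.84 and 0.54 and a median SE of 0.44. The median over all transcripts of at least 100 was −0.08.

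The coding partners had the reverse balance of calls. Higher in the IP were 326 partners (18.4%), and 211 (11.9%) were higher in the input, counted once per pair. Their median log2 fold change was −0.01, with quartiles of −0.62 and 0.71 and a median SE of 0.27. They were also more abundant by the way they were chosen, with a median mean normalized count of 790 against 252 for the NMD transcripts. A like balance was present in genes that held no listed NMD transcript. There, the most abundant coding transcript, again at least 100, was called higher in the IP for 1158 (17.6%) of 6593 genes. It was higher in the input for 823 (12.5%). The balance was nearly even in the 1720 genes whose NMD transcripts were all below 100. Their most abundant coding transcript was higher in the IP for 233 (13.5%) and higher in the input for 230 (13.4%). All 18928 coding transcripts of at least 100, whatever their rank in the gene, gave 15.9% and 17.7%.

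Within a gene, the NMD transcript stood lower than its coding partner slightly more often than higher. The median difference, NMD minus coding, was −0.13 on the log2 scale, with quartiles of −1.02 and 0.62. The difference was above 0 in 798 pairs and below 0 in 975. The NMD transcript was at least 2-fold above its partner in 315 pairs (17.8%), and in 242 of these the difference exceeded 2 combined SE. It was at least 2-fold below in 451 pairs (25.4%), 359 of them beyond 2 combined SE. The combined SE takes the 2 estimates of a pair as independent, although reads were divided between them. It therefore need not measure the spread of the difference. With the sum of all listed coding transcripts of the gene in place of the single partner, the median difference was −0.09, with 285 pairs at least 2-fold above and 394 at least 2-fold below.

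**Figure D1:**
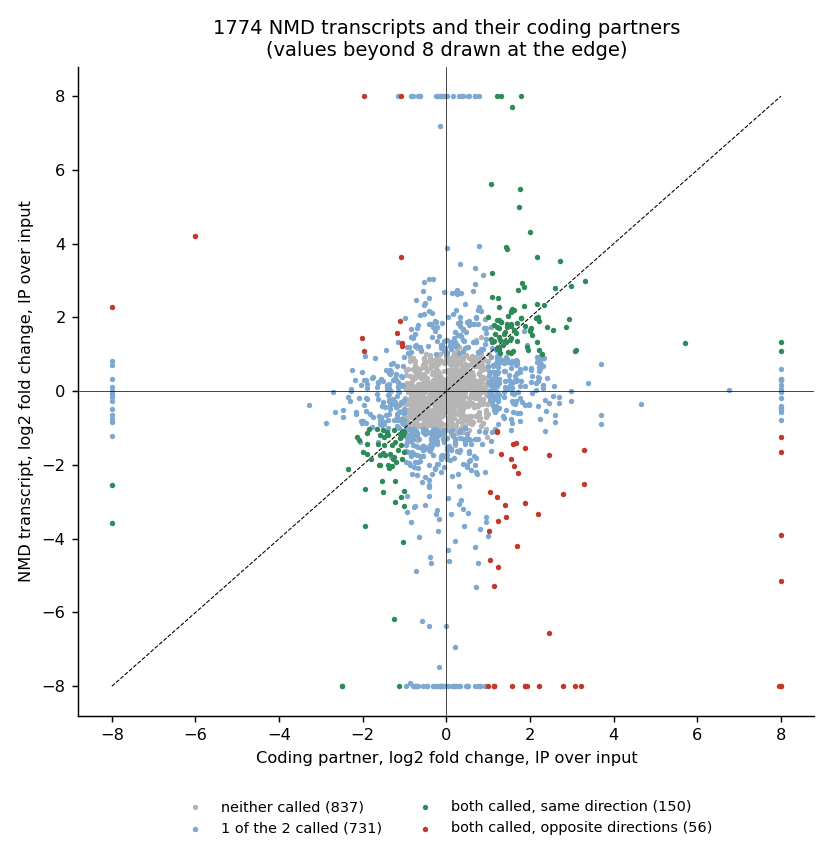
Log2 fold change (IP over input) of each NMD transcript, on the y axis, against that of its coding partner, on the x axis, for 1774 pairs coloured by their calls, with a dashed line of equality and values beyond 8 drawn at the edge. Points spread widely around the line, and the lower right quadrant, where the partner was higher in the IP and the NMD transcript higher in the input, holds 45 of the 56 pairs called in opposite directions.

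The calls of a pair were only loosely related. Neither transcript was called in 837 pairs, the NMD transcript alone in 400 and the partner alone in 331. Both were called higher in the IP in 90 pairs and both higher in the input in 60. In 56 pairs (3.16%) the calls were opposite. Of these, 45 had the NMD transcript higher in the input and the partner higher in the IP, and 11 the other way. Spearman's rho between the fold changes was 0.26 and Pearson's r −0.01 over 1774 pairs, which share genes, libraries and reads. Over the 909 pairs in which both SE were at most 0.5, rho was 0.36 and r was 0.30.

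The call of the NMD transcript went partly with that of its partner. Where the partner was higher in the IP (326 pairs), the NMD transcript was also higher in the IP in 27.6% and higher in the input in 13.8%. Its median log2 fold change there was 0.30, against 1.58 for the partners. Where the partner was higher in the input (211 pairs), 5.21% of the NMD transcripts were higher in the IP and 28.4% higher in the input, with medians of −0.55 for the NMD transcripts and −1.43 for the partners. Among the 1237 pairs with an uncalled partner, the shares were 12.0% and 20.4%. The NMD transcript was uncalled in 191 of the 326 pairs (58.6%) and in 140 of the 211 (66.4%). Where the partner was uncalled, this share was 67.7%.

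**Figure D2:**
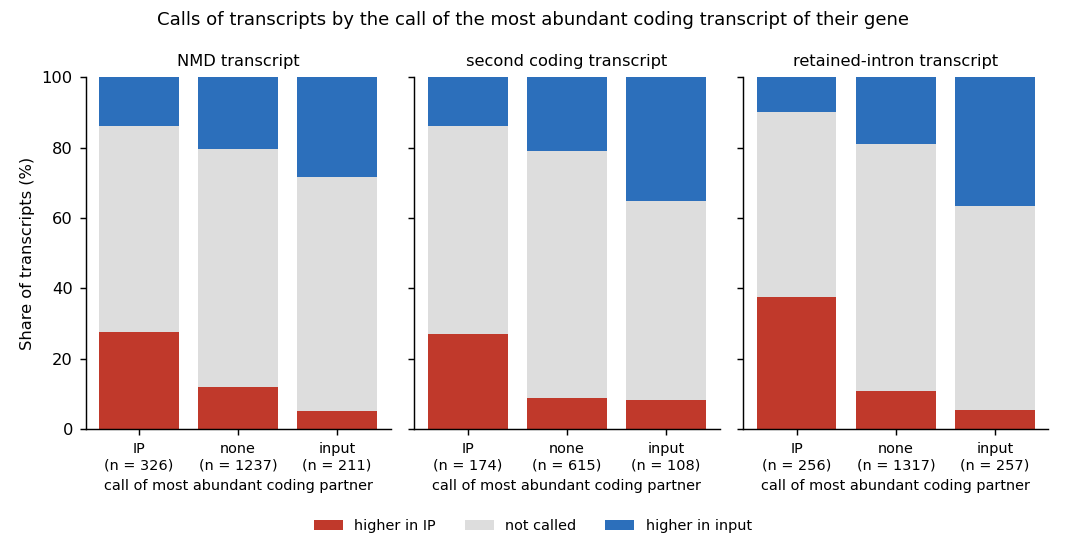
Share of transcripts (%, y axis) called higher in the IP, not called, or called higher in the input, split by the call of the most abundant coding transcript of the gene (x axis), for NMD transcripts, second coding transcripts and retained-intron transcripts. In each panel the share higher in the IP falls from the left bar to the right bar, from 27.6% to 5.21% for NMD transcripts, from 27.0% to 8.33% for second coding transcripts and from 37.5% to 5.45% for retained-intron transcripts.

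Other transcripts were set against the most abundant coding transcript of their gene to see where the NMD transcripts differed. In 897 of the 1453 genes a second coding transcript also reached 100, and it was compared with the first. These second coding transcripts had a median difference of −0.27 to the first, with 111 (12.4%) called higher in the IP and 191 (21.3%) higher in the input. The 1117 NMD transcripts of those 897 genes had a median difference of −0.24, with 12.4% and 21.9%. Retained-intron transcripts, which keep an intron in the mature RNA, formed 1830 pairs in 1392 genes, which were not limited to those of the members. Their partners had a median mean normalized count of 1478, against 790 for the partners of the NMD transcripts. The median difference of the retained-intron pairs was −0.08. Of their retained-intron transcripts, 253 (13.8%) were called higher in the IP and 370 (20.2%) higher in the input. The distributions of the within-gene difference overlapped over most of their range. In the same 897 genes the NMD and second coding transcripts had medians of −0.18 and −0.16. Calls opposite to the first coding transcript were found for 33 second coding transcripts (3.68%), 24 of them higher in the input and 9 in the IP. For the NMD transcripts of these genes they were 35 (3.13%), 30 and 5. For retained-intron transcripts they were 39 (2.13%), 25 and 14.

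**Figure D3:**
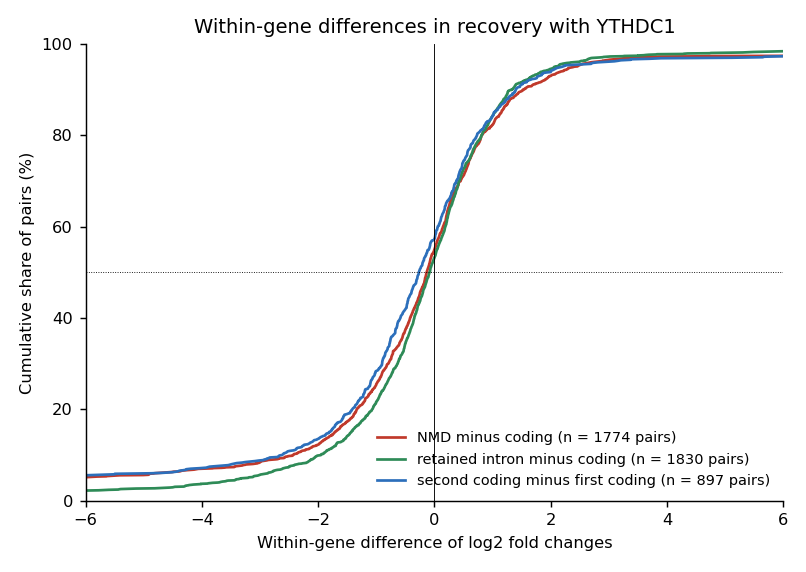
Cumulative share of pairs (%, y axis) against the within-gene difference of log2 fold changes (x axis) for 1774 NMD pairs, 1830 retained-intron pairs and 897 pairs of second and first coding transcripts, shown from −6 to 6. The curves cross the 50% line close together, at −0.13, −0.08 and −0.27, and the retained-intron curve rises later on the left, with 21.6% of pairs at least 2-fold below the partner against 25.4% for NMD and 28.3% for second coding transcripts.

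The position of the NMD transcript relative to its partner went with its abundance relative to that partner. In 368 pairs the NMD transcript was at least as abundant as the coding partner, and there its median log2 fold change was 0.16, with 19.6% called higher in the IP and 11.4% higher in the input. Between 0.25 times the partner's level and its full level (721 pairs), the median was −0.16. From 0.0625 to 0.25 times (515 pairs), it was −0.19, and below 0.0625 times (170 pairs) it was −0.31. The median difference to the partner went from 0.07 in the most abundant class to −0.37 in the rarest. The SE moved with it, from a median of 0.30 to 0.63, and the part of precision in this order was not tested.

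Summed over all members, the NMD transcripts amounted to 949866 in IP and 949486 in input, in estimated normalized counts. The sum of the coding partners, each counted once, was 0.12 higher in the IP on the log2 scale. Over all 5666 listed coding transcripts of these genes, the log2 ratio of the sums was −0.007. Within a gene, the members made up a median of 19.4% of the summed mean normalized counts, with quartiles of 9.32% and 34.5%. At the median this share was 18.2% for IP and 19.7% for input, and the median difference within a gene was −0.43 percentage points. The share was higher in the IP in 682 genes and lower in 771, by at least 10 points in 214 and 243 of them. In 162 genes the NMD transcripts made up more than 50% of the gene.

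The most abundant NMD transcripts were in genes where the NMD transcript was the leading form. DNMT1-227, of the maintenance DNA methyltransferase gene DNMT1 (chr19:10133346-10194953), had the highest mean normalized count of all members, 25030. Its estimated level was 30972 in the IP against 19088 in the input, or a log2 fold change of 0.70 (SE 0.14) that stayed below 2-fold. Its partner DNMT1-202 was far rarer, at 2091 in the input and 0.092 in the IP, and the SE of its fold change was 3.43. The coding DNMT1-201, nearly as abundant as DNMT1-202, had 621 in the IP against 1268 in the input. Its log2 fold change was −1.03 (SE 0.33), so the size of the difference in this gene turned on the coding transcript taken. The next in abundance was IQGAP1-218, of a cytoskeletal scaffold protein, with 15958 in the IP against 13538 in the input and a log2 fold change of 0.24 (SE 0.22) beside 0.48 (SE 0.27) for IQGAP1-201.

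HNRNPU-228, of a nuclear matrix RNA-binding protein, moved together with its partner, at a log2 fold change of 0.53 (SE 0.17) against 0.60 (SE 0.21) for HNRNPU-201. RPS3-204, of a small ribosomal subunit protein, had 8035 in the IP against 13552 in the input, or a log2 fold change of −0.75 (SE 0.16), beside −0.97 (SE 0.25) for RPS3-203. VCL-207, of the focal adhesion protein vinculin, was at −0.64 (SE 0.21) while VCL-201 was at 0.17 (SE 0.21). Only GPATCH8-205 among these 6 was called. This transcript, of a G-patch domain protein gene, had 15999 in the IP against 4169 in the input, or a log2 fold change of 1.94 (SE 0.16, adjusted p = 7.65e-31 in the authors' DESeq2 fit), and its partner GPATCH8-208 was also called, at 1.21 (SE 0.25).

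The widest differences in favour of the NMD transcript, among pairs in which both SE were at most 0.5 and at least 1 transcript was called, were led by ACTG1, which encodes cytoplasmic gamma-actin (chr17:81509971-81512799). ACTG1-204 had 16877 in the IP against 909 in the input, or a log2 fold change of 4.21 (SE 0.25, adjusted p = 8.82e-61 in the authors' DESeq2 fit). Its partner ACTG1-216 had 704 in the IP against 45452 in the input, or a log2 fold change of −6.01 (SE 0.31). Among the other abundant transcripts of the gene, the coding ACTG1-205 was called higher in the input at −7.24, and so was the coding ACTG1-208, whose estimated level in the IP was under 1 normalized count. The coding ACTG1-202 was uncalled at −0.25 (SE 0.16), and the coding ACTG1-215 and the retained-intron ACTG1-211 were at 0.96 and 0.87. Summed over its 14 listed transcripts, ACTG1 had a log2 ratio of −0.59, far smaller in size than the values of ACTG1-204, ACTG1-216 and ACTG1-205.

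RIF1-207, of a replication timing and DNA break repair factor (chr2:151409902-151534435), had 1150 in the IP against 25.7 in the input, or a log2 fold change of 5.48 (SE 0.32). Here the partner RIF1-204 was called in the same direction, at 1.76 (SE 0.21), so the difference of 3.72 separated a strongly and a moderately recovered transcript. AHR-202, of the ligand-activated aryl hydrocarbon receptor (chr7:17298652-17346147), had 5786 in the IP against 742 in the input, or a log2 fold change of 2.96 (SE 0.25). Its partner AHR-201 had 3211 and 4651, a log2 fold change of −0.53 (SE 0.10). AHR listed 3 transcripts in all, and the share of its counts in the NMD transcript was 64.2% for IP and 13.7% for input.

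The remaining 5 pairs of this kind had NMD log2 fold changes from 1.10 to 3.03 and partners from −1.97 to −0.31. CLTA-208, of clathrin light chain A, was at 3.03 (SE 0.44) and CLTA-202 at −0.31 (SE 0.13). TSR3-202, of a ribosomal RNA modifying enzyme, was at 2.71 (SE 0.43) and TSR3-201 at −0.57 (SE 0.25). COMMD4-203, of a COMM domain protein, was at 2.46 (SE 0.40) and COMMD4-201 at −0.74 (SE 0.28). These coding partners were not called. The other NMD member of COMMD4, COMMD4-206, was called higher in the input, with 0.12 in the IP against 238 in the input. Summed, the NMD transcripts of COMMD4 had a log2 ratio of −0.03. ITGA2-205, of the collagen receptor subunit integrin alpha 2, was at 1.10 (SE 0.47) while ITGA2-201 was called higher in the input, at −1.97 (SE 0.22). RPN1-202, of an oligosaccharyltransferase subunit, was at 2.00 (SE 0.45) and RPN1-201 at −0.98 (SE 0.19), just short of 2-fold.

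The widest differences in favour of the coding partner were led by NOP56, which encodes a core protein of box C/D small nucleolar ribonucleoproteins (chr20:2652632-2658393). NOP56-221 had 59.4 in the IP against 1087 in the input, or a log2 fold change of −4.19 (SE 0.38, adjusted p = 5.33e-27 in the authors' DESeq2 fit). NOP56-201 had 6385 and 1994, a log2 fold change of 1.68 (SE 0.27).

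CLIP1-216, of a microtubule plus-end protein (chr12:122271469-122422956), had 91.7 in the IP against 520 in the input, or a log2 fold change of −2.50 (SE 0.42). CLIP1-210 had 11894 and 1208, a log2 fold change of 3.30 (SE 0.28). The second NMD transcript of the gene, CLIP1-207, was also called higher in the input, at −1.60 (SE 0.61). CLIP1 as a whole had a log2 ratio of 1.28 over 14 listed transcripts.

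TARS1, the cytoplasmic threonyl-tRNA synthetase gene (chr5:33440696-33468091), had 2 NMD members that differed from each other. TARS1-210 had 251 in the IP against 2508 in the input, or a log2 fold change of −3.32 (SE 0.32), whereas TARS1-207 was at 0.38 (SE 0.30). The partner TARS1-204 had 4856 and 1065, a log2 fold change of 2.19 (SE 0.41). The gene total had a log2 ratio of 0.42.

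KANSL3-201, of a subunit of the NSL histone acetyltransferase complex, had a log2 fold change of −1.72 (SE 0.28) against 2.46 (SE 0.37) for KANSL3-206, both called. Of the other NMD members of the gene, KANSL3-207 was called higher in the input at −6.56 (SE 1.18). KANSL3-208 was not called, at −0.31 (SE 0.37). In the other 4 pairs the NMD transcript was called higher in the input and the partner was not called. KIDINS220-208, of a neurotrophin receptor scaffold, was at −4.23 (SE 0.31) and KIDINS220-206 at 0.69 (SE 0.25). PSMD7-206, of a proteasome lid subunit, was at −3.55 (SE 0.36) and PSMD7-201 at 0.95 (SE 0.21). TUBGCP2-208, of the gamma-tubulin complex, was at −4.30 (SE 0.28) and TUBGCP2-201 at 0.04 (SE 0.17). PXN-214, of the focal adhesion protein paxillin, was at −4.66 (SE 0.27) and PXN-204 at −0.36 (SE 0.10). The other NMD members of PXN, PXN-203 at 0.71 (SE 1.27) and PXN-222 at −0.10 (SE 0.44), were not called. Among its coding transcripts, PXN-221 was called higher in the IP at 1.40 and PXN-207 higher in the input at −1.28.

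**Figure D4:**
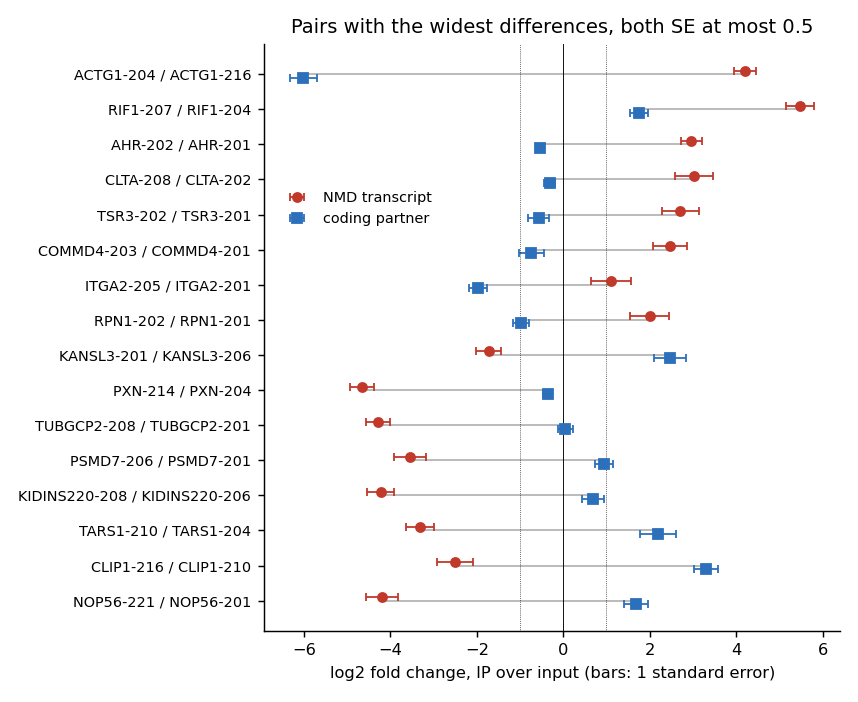
Log2 fold change (IP over input, x axis) with 1 SE of the NMD transcript (red circles) and its coding partner (blue squares) in the 8 pairs with the highest and the 8 with the lowest difference, among pairs with both SE at most 0.5 and at least 1 call. Dotted lines mark 2-fold, and in 6 of the 16 genes (ACTG1, ITGA2, KANSL3, TARS1, CLIP1 and NOP56) the transcripts lie beyond them on opposite sides.

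Of the 56 pairs called in opposite directions, both SE were at most 0.5 in 12. Among the 45 with the NMD transcript higher in the input, 19 had a transcript whose estimated level was under 1 normalized count in 1 of the groups, called near-absent here, and among the 11 with the NMD transcript higher in the IP, 3 did. The fitted fold changes of such transcripts have an SE of about 3 and give no bound on the size of the change. An example is CTNNA1, which encodes alpha-catenin (chr5:138753425-138935034). CTNNA1-230 had 3590 in the IP against 8466 in the input, or a log2 fold change of −1.24 (SE 0.18). Its partner CTNNA1-201 had 12373 in the IP against 0.094 in the input. The next coding transcripts, CTNNA1-210 and CTNNA1-243, were called higher in the input, and the gene total had a log2 ratio of −0.03, so the direction of this pair turned on which coding transcript was taken. Near-absent were 87 of the 1774 NMD transcripts (4.90%), 27 of them higher in the IP against 60 in the input. The share over all transcripts of at least 100 was 3.59%. Of the 897 second coding transcripts, 54 (6.02%) were near-absent, 20 higher in the IP and 34 in the input. Of the 1830 retained-intron transcripts, 37 (2.02%) were, 16 and 21.

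In 255 genes, 2 to 5 NMD transcripts were members, and they often differed among themselves. The median range between the lowest and the highest log2 fold change within such a gene was 1.09. No member was called in 119 of these genes, some members were called in 105, all were higher in the IP in 8, all were higher in the input in 15, and calls went both ways in 8. The genes named next were chosen after their values were seen. Both NMD transcripts of SLC25A37, the mitochondrial iron importer mitoferrin-1, were higher in the IP, with log2 fold changes of 2.30 (SE 0.19) for SLC25A37-201 and 2.84 (SE 0.28) for SLC25A37-202, beside 1.85 (SE 0.10) for the partner. OTULIN, a linear ubiquitin deubiquitinase, had 1.39 (SE 0.22) for OTULIN-202 and 1.70 (SE 0.69) for OTULIN-206, with an uncalled partner at 0.39 (SE 0.23).

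Calls in both directions were found in SPG7, DDX3X, DBNL, SPAG5, SS18, CANX, COMMD4 and POLE. In POLE, which encodes the catalytic subunit of DNA polymerase epsilon, POLE-203 was at −1.69 (SE 0.25) and POLE-222 at 1.89 (SE 0.69). In SPAG5, of a mitotic spindle protein, SPAG5-202 was at 1.36 (SE 0.50) and SPAG5-207 at −3.65 (SE 0.78). A near-absent transcript was involved in SPG7, DDX3X, DBNL, CANX and COMMD4. CANX-218, of the endoplasmic reticulum chaperone calnexin, had 10624 in the IP against 3086 in the input, or a log2 fold change of 1.78 (SE 0.21), while its partner CANX-209 was at −0.69 (SE 0.24).

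Of the NMD pathway itself, the helicase gene DHX34 held a member. DHX34-202 was at 1.14 (SE 0.66) and its partner DHX34-201 at 0.25 (SE 0.12), and neither was called. The exon junction complex marks spliced junctions and so sets up NMD, and its 3 members were all called higher in the IP, a call made for 16.8% of all transcripts of at least 100. ACIN1-206, of the peripheral factor acinus, had 4774 in the IP against 1157 in the input, or a log2 fold change of 2.05 (SE 0.21) beside 1.46 (SE 0.10) for ACIN1-223. CASC3-204, of the core component Barentsz, was at 1.61 (SE 0.18) and CASC3-201, uncalled, at 0.47 (SE 0.16). RBM8A-207, of the core component Y14, was near-absent in the input and had an SE of 3.04.

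Splicing regulators are the best known users of NMD transcripts for self-control. Among 10 pairs of SR and SR-like splicing factors, 2 NMD transcripts were higher in the IP and none in the input at this call rule, with a median log2 fold change of −0.00. SRSF1-206 was at 1.04 (SE 0.34), its partner SRSF1-208 at 1.55 (SE 0.44), and the other NMD member of the gene, SRSF1-207, at −0.75 (SE 0.29). SRSF10-210 was at 1.17 (SE 0.46) with SRSF10-203 at −0.13 (SE 0.25). The most abundant NMD transcript of this group, SRSF2-208, had a log2 fold change of −0.47 (SE 0.12), short of 2-fold, and its partner SRSF2-201 was near-absent in the IP. SRSF3-203, from the gene of a known YTHDC1 partner protein, was at 0.80 (SE 0.34) beside −0.49 (SE 0.19) for SRSF3-208.

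Among 11 pairs of hnRNP and PTB proteins, which often oppose SR proteins at splice sites, the median of the NMD transcripts was 0.19, with 0 called higher in the IP against 2 in the input. PTBP1-207, of the polypyrimidine tract binding protein, had 154 in the IP against 898 in the input, or a log2 fold change of −2.55 (SE 0.38), beside −0.42 (SE 0.20) for PTBP1-203. PCBP2-208, of a poly(C)-binding protein, was at −1.15 (SE 0.27) and PCBP2-222 at −0.16 (SE 0.17). Counted once per pair, 3 partners were higher in the IP against 0 in the input, and these were HNRNPA1-208 and, for 2 pairs, HNRNPDL-206.

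RBM proteins and other splicing regulators gave 15 pairs, 5 of them with the NMD transcript higher in the IP and 3 with it higher in the input, at a median of 0.69. RBM39, a U2AF-related splicing factor, held 3 of these 5, among them RBM39-210 at 1.26 (SE 0.25), with an uncalled partner at 0.26 (SE 0.30). RBM6-202 was at 1.21 (SE 0.32) and RBM6-201 at 1.94 (SE 0.24). CLK3, a kinase that phosphorylates SR proteins, was called in opposite directions, with CLK3-204 at −2.78 (SE 0.74) and CLK3-201 at 2.78 (SE 0.60). SF1-211, of the branch point binding protein, was near-absent in the IP. RBM8A-207 counted in this list and in that of the exon junction complex.

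NMD transcripts from genes of the m6A machinery all had values above 0. Over 7 pairs in 6 genes the median log2 fold change was 1.23 for the NMD transcripts and 1.09 for the partners. Of the NMD transcripts, 4 were higher in the IP against 0 in the input. Of the partners, counted once per pair, 4 were higher in the IP against 1 in the input. The shares over all transcripts of at least 100 were 16.8% and 17.7%. The difference, NMD minus coding, was above 0 in 4 pairs and below 0 in 3. METTL16-208, of a methyltransferase that targets MAT2A and the U6 RNA, had 873 in the IP against 284 in the input, or a log2 fold change of 1.62 (SE 0.22) against −0.28 (SE 0.75) for METTL16-201. FTO-220, of an m6A demethylase, was at 1.23 (SE 0.49) and its partner FTO-202 was called higher in the input at −1.07 (SE 0.39). IGF2BP3-202, of an m6A reader, was at 2.33 (SE 0.74) with IGF2BP3-201 at −0.54 (SE 0.49). METTL14-205, of the methyltransferase core, was at 1.33 (SE 0.48) and METTL14-201 at 1.09 (SE 0.33). For the writer subunits VIRMA and WTAP the coding partner was the called form, at 2.02 (SE 0.23) for VIRMA-202 and 2.01 (SE 0.22) for WTAP-206, while their NMD transcripts lay between 0.25 and 0.63 and were not called.

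The aminoacyl-tRNA synthetases, which charge tRNAs with amino acids, showed the widest gap between NMD and coding forms of the lists described here. Over 12 pairs in 6 genes the median was −0.61 for the NMD transcripts and 1.09 for the partners, a median difference of −1.77, and 11 of 12 differences were below 0. Of the NMD transcripts, 0 were higher in the IP against 4 in the input. Of the partners, counted once per pair, 6 were higher in the IP against 0 in the input. These 6 were TARS1-204, QARS1-201 and NARS1-201, each counted for 2 pairs. Over all transcripts of at least 100, 16.8% were higher in the IP and 17.7% higher in the input. The pairs came from few genes. The glutaminyl-tRNA synthetase QARS1 and the asparaginyl-tRNA synthetase NARS1 each had 2 NMD members and a partner at 1.89 (SE 0.57 for QARS1-201 and 0.59 for NARS1-201). QARS1-250 and the called NMD transcript of MARS1, the methionyl-tRNA synthetase gene, were near-absent in the IP and NARS1-204 had an SE of 3.01. TARS1-210 was the only called NMD transcript of the list with an SE of at most 0.5.

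Over 18 pairs of the ribosomal protein list the median was −0.91 for the NMD transcripts and −0.48 for the partners, with 1 NMD transcript higher in the IP and 6 higher in the input. RPS15A-202 was at −1.17 (SE 0.44) and RPS15A-203 at −0.33 (SE 0.17). RPLP0-214 was at −2.70 (SE 1.14) and RPLP0-203 was called in the same direction at −1.02 (SE 0.16). RPL8-211, the 1 called higher in the IP, was at 1.12 (SE 0.48). Its partner RPL8-212 was at −0.62 (SE 1.33, adjusted p = 0.00178 in the authors' DESeq2 fit), uncalled because it was short of 2-fold. RPS3-216 was near-absent in the IP. The symbol rule of this list also took in RPS6KA4, a kinase gene, whose NMD transcript and partner were not called. Ribosomal protein genes have many processed pseudogenes, so reads of these genes may be shared with copies elsewhere.

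The proteasome list held 13 pairs with a median of −0.79 for the NMD transcripts and −0.06 for the partners. Its calls were 2 higher in the IP against 3 in the input among NMD transcripts. The partners, counted once per pair, had the same numbers, with PSMD9-205 counted for 2 of the 3 pairs in the input. PSMD2-204, of a base subunit of the regulatory particle, had 686 in the IP against 2126 in the input, or a log2 fold change of −1.63 (SE 0.19), while PSMD2-201 was at 0.25 (SE 0.14). PSMB3-212, of a core particle subunit, was at −1.06 (SE 0.29) and PSMB3-211 at −0.06 (SE 0.41). PSMD9-209, of an assembly chaperone, was called higher in the IP at 1.44 (SE 0.47) and its partner PSMD9-205 higher in the input at −2.01 (SE 0.55). PSMC3IP and PSME3IP1, which are not proteasome subunits, were in the list by their symbols, and their NMD transcripts were not called. The partner PSME3IP1-202, at 1.65 (SE 0.28), was 1 of the 2 called higher in the IP.

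Mitochondrial respiratory chain genes gave 6 pairs, in which 2 NMD transcripts were higher in the IP against 0 in the input, and the median was 0.29 against −0.59 for the partners. The 2 were UQCRB-203, of a complex III subunit, at 1.03 (SE 0.50), and COX10-207, of a heme biosynthesis enzyme needed for complex IV, at 1.47 (SE 0.74), both with uncalled partners. In the TGF-beta and SMAD pathway, the subject of the study, 7 pairs had a median of −0.23 with 1 call in each direction. TGFBR3-209, of the co-receptor betaglycan, had 199 in the IP against 620 in the input, or a log2 fold change of −1.64 (SE 0.35), beside 0.31 (SE 0.32) for TGFBR3-204. SMURF2-203, of a ubiquitin ligase that acts on SMADs and TGF-beta receptors, was at 1.10 (SE 0.41) and SMURF2-201 at −0.06 (SE 0.13). None of the partners in this pathway was called, and SMAD4-213, the 1 SMAD member, was at −0.39 (SE 0.53).

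**Figure D5:**
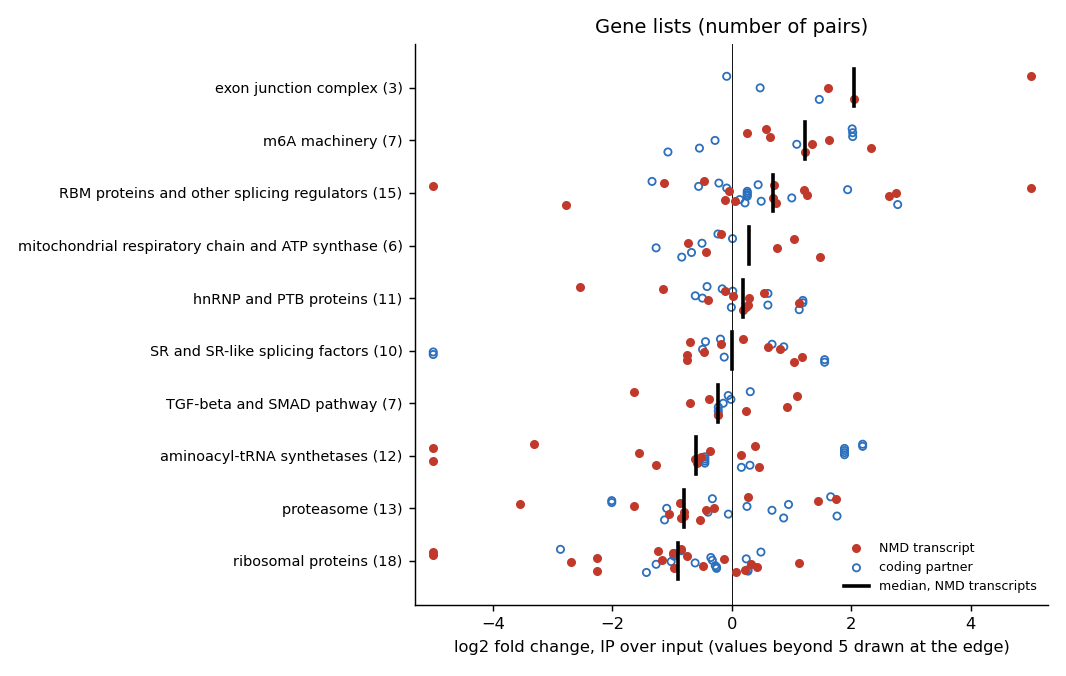
Log2 fold change (IP over input, x axis) of NMD transcripts (filled red) and their coding partners (open blue) in 10 gene lists, ordered by the median of the NMD transcripts (black bar), with values beyond 5 drawn at the edge and the number of pairs in parentheses. The medians run from −0.91 for ribosomal proteins to 2.05 for the exon junction complex, against −0.12 over all 1774 members, and in each list of more than 3 pairs the NMD transcripts lie on both sides of 0 except in the m6A machinery.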

How the data were processed

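RIP-seq was analysed from 2 Flag-YTHDC1 IP and 2 input libraries, grouped by their labels. Per the submitters' processing notes and the methods, reads were checked with FastQC 0.11.5, mapped with STAR 2.7.2b to a transcriptome with GENCODE v33 annotation and assigned to transcripts with RSEM 1.2.31, which divides ambiguous reads among transcripts by estimate. A transcript had to reach 5 reads in 50% or more of the samples, unwanted variation was removed with RUVSeq, and the authors compared the groups by DESeq2 with shrinkage. The authors deposited 1 table, with a signal (the mean normalized count over all libraries), a log2 fold change with its standard error, and a p-value and adjusted p-value. All of these are the authors' values. As no value per library was given, no test was run here, although a count test had been planned for that case. The methods word the change as one upon knockdown, but the labels give IP and input, so a positive value was taken to mean a higher level in the IP. Library depth is unknown, and no counting interval can be given.

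Pairs were formed as the report states. The call rule is that of the study's methods and its mirror image. IP and input levels are the pair of values with the listed mean and ratio, and the SE of a difference is the root of the summed squares of both SE. Transcript types, names and genes were taken from the table. Of the 1453 genes, 1435 matched a RefSeq gene (GRCh38.p14) by symbol, from which the positions come. Transcript and protein sequences were not used here.

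Members and gene lists were chosen with earlier results of these data known, so no p-value over members or lists was computed. The named pairs, 1 NMD transcript per gene, were the 8 highest and 8 lowest differences among pairs with both SE at most 0.5 and at least 1 call, the 6 most abundant NMD transcripts, the 6 opposite pairs with the most abundant rarer transcript, up to 4 called members per list by abundance, and those at the minimum. Some items that this rule or the lists take in are not reported here. List members named beside them without a call, and genes with several members, were added after their values were seen. Pairing was tested on simulated data. Alternatives were other minimum counts, thresholds and partner rules, filters on SE and on near-absent transcripts, and 1 NMD transcript per gene. Python 3.11.15, numpy 2.4.6, pandas 2.3.3 and matplotlib 3.10.9 were used.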

Additional observations from a re-analysis of the deposited data

How the results depend on the processing

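The median difference between NMD transcript and coding partner lay between −0.17 and −0.08 over 8 alternatives. That range includes 2 alternatives added after seeing the data, which gave −0.17 without pairs whose NMD transcript was the more abundant and −0.09 at a minimum of 50. The median of the partners changed sign, to 0.06 at a minimum of 200 and 0.09 at 500. In the settings in which calls were counted (minimum of 200 or 500, 1 NMD transcript per gene, both SE at most 0.5, no near-absent transcripts, adjusted p of 0.05 or 0.01, and 1.5-fold or 4-fold), more NMD transcripts were higher in the input than in the IP, and more partners higher in the IP than in the input. Among the most abundant members, with mean normalized counts from 606 upward, NMD calls were 72 in the IP against 61 in the input. Counts are given in the order NMD in IP, NMD in input, partner in IP, partner in input, opposite calls, at least 2-fold above and at least 2-fold below the partner. At a minimum of 200 they were 154, 209, 191, 126, 30, 179 and 255, and at 500 they were 60, 71, 72, 44, 7, 67 and 85. With both SE at most 0.5 they were 127, 149, 159, 102, 12, 144 and 179. These settings leave fewer pairs. At 4-fold the first 5 were 95, 160, 102, 44 and 15. At 1.5-fold, 388 partners were higher in the input and 113 pairs had opposite calls. Opposite calls fell to 36 with 1 NMD transcript per gene and to 34 without near-absent transcripts. The other alternatives, adjusted p of 0.05 or 0.01 and the summed coding partner, stayed within 1.5 times the reported counts. No paired analysis was possible because no value per library was given, and leaving out a library was not run for the same reason. Precision was lowest for the rarest members, with a median SE of 0.62 for those with mean normalized counts up to 141 and 0.24 for those from 606 upward.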

Other observations

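Among NMD transcripts outside the pairs, there were 253 that reached 100 without a coding partner that did. Their median log2 fold change was 0.13, with 43 (17.0%) higher in the IP and 31 (12.3%) higher in the input. Of these, the 179 in genes with rarer coding transcripts had 31 and 21 calls, and the 74 in genes with no listed coding transcript had 12 and 10. The difference from the members was not tested. Among the 4472 NMD transcripts below 100, 272 (6.08%) were higher in the IP and 311 (6.95%) in the input, at a median SE of 0.97.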
